A study of Mus musculus with 8 samples.

Results

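The T cell clones described here are the largest in 4 single-cell TCR libraries from injured mouse brain. A clone was selected on a measured value, the number of cells that the deposited clonotype table gives it, and entered with 10 or more cells in its own library. This took 912 of 2986 cells and 22 of 1693 clonotypes. Because clone size chose the members, sizes and shares of the library are given as a description. The clones just inside the size limit held 10 cells in YTBI_aCD49d, 11 in ATBI_Isotype and 12 in ATBI_aCD49d. Just outside it were clones of 7 cells in each young library, 8 and 8 cells in ATBI_Isotype, and 9 cells in ATBI_aCD49d.

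The libraries were YTBI_Isotype and YTBI_aCD49d, from mice injured at 13 to 15 weeks of age, and ATBI_Isotype and ATBI_aCD49d, from mice injured at 80 to 82 weeks. All mice were male C57BL/6 and had a traumatic brain injury (TBI) by controlled cortical impact. They received either an antibody to CD49d, the alpha 4 integrin subunit that T cells use to cross vessel walls, or an isotype control antibody, repeated every 2 weeks. CD45+ cells were sorted from the brain 2 months after injury. Each group was 1 library made from 2 pooled mice, so a clone could not be assigned to a mouse and groups are set side by side without a test. The 95% intervals given are exact for shares, by the Newcombe method for differences, and cover counting error only, and cells of a clone are not independent of each other. Expression was not analysed here, so the label of T cell rests on the receptor: every cell carried a productive alpha or beta chain.

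A T cell builds its receptor by joining gene segments: V and J for the alpha chain, and V, D and J for the beta chain. Bases are trimmed from and added to the segment ends during joining, so the complementarity-determining region 3 (CDR3), which spans the join and touches the antigen, is close to unique to each cell. When a T cell divides in response to antigen, its daughters inherit both chains and are found as a clone. Brains of aged mice are known to collect clonally expanded T cells.

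The CDR3 bases of the leading clones are shown because they show how each chain was built and which clonotypes are copies of each other. Each runs 5′ to 3′ from the conserved cysteine codon to the conserved phenylalanine or tryptophan codon. Capitals mark bases that match neither the germline V nor the germline J segment, which include any D bases, and a base within the V stretch that differs from germline. Both young clones and the 5 largest of each aged library come first, by their beta chain.
YTBI_aCD49d clone 1 beta: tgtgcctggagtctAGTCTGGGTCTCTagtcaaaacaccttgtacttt
YTBI_aCD49d clone 2 beta: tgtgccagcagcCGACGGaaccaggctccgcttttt
ATBI_Isotype clone 1 beta: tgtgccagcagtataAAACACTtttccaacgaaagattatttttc
ATBI_Isotype clone 2 beta: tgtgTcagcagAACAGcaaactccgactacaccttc
ATBI_Isotype clone 3 beta: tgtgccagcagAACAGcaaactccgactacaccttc
ATBI_Isotype clone 4 beta: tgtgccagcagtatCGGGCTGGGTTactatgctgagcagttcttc
ATBI_Isotype clone 5 beta: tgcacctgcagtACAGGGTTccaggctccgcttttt
ATBI_aCD49d clones 1 and 10 beta: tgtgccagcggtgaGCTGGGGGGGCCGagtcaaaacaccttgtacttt
ATBI_aCD49d clone 2 beta: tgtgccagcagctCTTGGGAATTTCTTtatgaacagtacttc
ATBI_aCD49d clones 3, 6 and 11 beta: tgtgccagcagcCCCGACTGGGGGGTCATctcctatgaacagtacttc
ATBI_aCD49d clone 4 beta: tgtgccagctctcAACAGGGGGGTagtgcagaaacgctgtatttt
ATBI_aCD49d clone 5 beta: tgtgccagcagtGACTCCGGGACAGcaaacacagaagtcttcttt

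The alpha chains below are those the later comparisons turn on: the TRAV12-1 chains of ATBI_Isotype, the TRAV9-4 chains of ATBI_aCD49d, the chain of the TRBV3 receptor, and both chains of the clone with a second alpha.
ATBI_Isotype clones 2 and 3 alpha: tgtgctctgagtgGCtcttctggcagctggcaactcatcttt
ATBI_Isotype clone 6 alpha: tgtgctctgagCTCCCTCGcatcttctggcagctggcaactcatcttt
ATBI_aCD49d clones 1 and 10 alpha: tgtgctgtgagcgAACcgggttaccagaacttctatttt
ATBI_aCD49d clone 2 alpha: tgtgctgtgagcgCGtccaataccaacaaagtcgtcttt
ATBI_aCD49d clones 3 and 11 alpha: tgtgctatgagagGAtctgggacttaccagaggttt
ATBI_aCD49d clone 7 alpha, TRAV14D-1: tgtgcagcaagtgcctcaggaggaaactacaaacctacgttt
ATBI_aCD49d clone 7 alpha, TRAV11: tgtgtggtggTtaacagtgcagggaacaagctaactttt

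The 4 libraries held 262, 577, 1024 and 1123 cells with 4473 to 18415 TCR unique molecular identifiers (UMIs, 1 per captured transcript) and a median of 9 to 15 UMIs per cell. YTBI_Isotype had no clone of 10 cells. A clone of 10 cells was 3.82% of that library and 0.890% of ATBI_aCD49d. The size limit thus asks for a larger share in a smaller library. For a count of 0 among 262 cells, the limit is 1.15% at 3 counts and 1.40% by the exact interval. Both lie below the 3.82% of a single clone of 10 cells, so they do not bound the share of cells in such clones. YTBI_aCD49d had 2 clones with 43 cells (7.45%, interval 5.45% to 9.91%), ATBI_Isotype 9 clones with 433 cells (42.3%, interval 39.2% to 45.4%) and ATBI_aCD49d 11 clones with 436 cells (38.8%, interval 36.0% to 41.7%). With a limit of 1% of each library's cells in place of 10 cells, YTBI_Isotype had 8 clones with 11.5% of its cells. YTBI_aCD49d then had 5 clones with 10.7%, and the aged libraries had 9 and 11 clones as before. One barcode occurred in both aged libraries, in cells outside these clones and with no CDR3 in common, and no other pair of libraries shared a barcode.

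In the young aCD49d library, clone 1 held 33 cells (5.72%, interval 3.97% to 7.94%). Its beta chain joined TRBV31 to TRBJ2-4 with a CDR3 of 16 residues, and its alpha chain joined TRAV9-2 to TRAJ31 with 12 residues. Trbv31 is the one mouse beta V segment that lies downstream of the constant genes, on the reverse strand of chromosome 6 from 41557691 to 41558452 (GRCm38, GENCODE vM21). Of its 33 cells, 21 had the alpha chain (63.6%, interval 45.1% to 79.6%), with 1 to 6 UMIs and a median of 2, against 3 to 18 and a median of 7 for beta. Clone 2 held 10 cells, 9 of them with the alpha chain TRAV10N and TRAJ13, and joined TRBV10 to TRBJ1-5 with 12 residues in both chains. Its beta UMIs ranged from 3 to 36 with a median of 18, the highest median of any clone, and its alpha median was 5. Clone 1 of the same library lay below the single-cell medians of 9 beta and 3 alpha UMIs.

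The beta chain of YTBI_aCD49d clone 2 was called TRBV10, as was that of ATBI_aCD49d clone 2. In GENCODE vM21, Trbv10 is a pseudogene at chromosome 6 from 41091940 to 41092228. The framework 1 to framework 3 bases of all 164 chains with this call, in 4 libraries, lie instead at chr6:41059600-41059869 on the forward strand, within Trbv4 (41059394 to 41059886), and no chain was called TRBV4. After framework 3, the genome there reads tgtgccagcagctaaga (chr6:41059870-41059886), whose first bases open both CDR3 shown above. The call is kept here as deposited, with Trbv4 as the germline. It was the 1 V call of 109 whose sequence was not in the annotated segment of the same name.

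**Figure D1:**
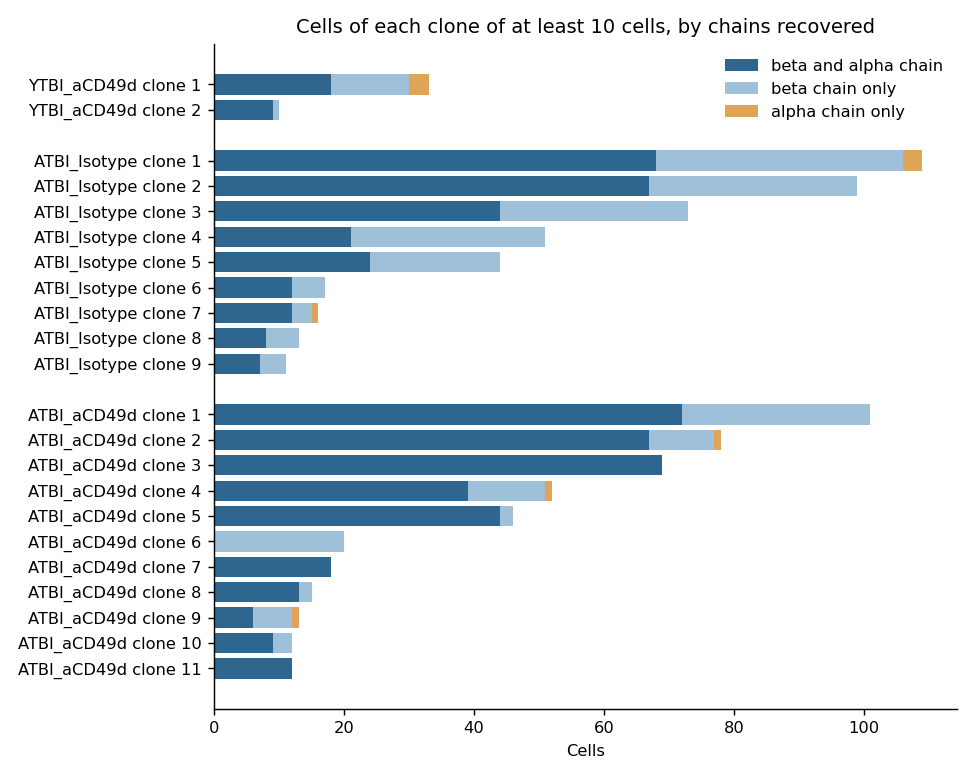
Cells of each of the 22 clones of at least 10 cells (bars, number of cells), split by the chains recovered in each cell. The aged libraries hold clones of 11 to 109 cells, most cells have both chains or a beta chain alone, and ATBI_aCD49d clone 6 has a beta chain alone in all 20 cells.

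Of the 9 clones of the aged isotype library, 5 held 44 or more cells. Clone 1, with 109 cells (10.6%, interval 8.82% to 12.7%), carried TRBV19 and TRBJ1-4 with TRAV7N-6 and TRAJ9. Its alpha CDR3 had 9 bases outside V and J, the most of any clone. Clone 4, with 51 cells (4.98%), also carried TRBV19, joined to TRBJ2-1, with TRAV16 and TRAJ56. Trbv19 lies on chromosome 6 from 41178375 to 41179048. Clone 5, with 44 cells (4.30%), carried TRBV1 and TRBJ1-5 with TRAV14D-1 and TRAJ56. The beta and alpha CDR3 had 15 and 16 residues in clone 1, 15 and 15 in clone 4, and 12 and 13 in clone 5, so the TRBV19 clones had the longer chains.

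Beta UMIs per cell ranged from 1 to 14 in ATBI_Isotype clone 1, with a median of 4, from 2 to 17 in clone 4, with a median of 6, and from 2 to 34 in clone 5, with a median of 9. Alpha UMIs had a median of 2 in all 3 and reached 12, 15 and 7. The alpha chain was found in 71 of 109 cells of clone 1 (65.1%, interval 55.4% to 74.0%), 21 of 51 of clone 4 and 24 of 44 of clone 5 (54.5%, interval 38.8% to 69.6%). Of these 3 clones, clone 1 had the lowest beta median and the highest recovery. Whether recovery follows depth was not tested.

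Clones 2 and 3 of ATBI_Isotype, with 99 and 73 cells, carried the same segments, TRBV14 and TRBJ1-2 with TRAV12-1 and TRAJ22. Their alpha chains were identical over frameworks and CDR3, and their beta CDR3 differed by 1 base of 36. Counted from 1 at the first base of the CDR3, the change from germline is C5T in clone 2, while clone 3 has the germline base of Trbv14 (chromosome 6, 41135145 to 41135616). The substitution changes the encoded residue. Together these clonotypes made up 172 cells, 16.8% of the library (interval 14.6% to 19.2%). Their beta CDR3 had 12 residues and their alpha CDR3 had 14. Median beta UMIs were 5 (1 to 15) and 6 (1 to 14), median alpha UMIs were 3 in both, and the alpha chain was found in 67 of 99 and 44 of 73 cells. A further 2 cells, listed as another clonotype, held this alpha chain and no beta chain.

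The 4 smaller clones of ATBI_Isotype held 11 to 17 cells. Clone 6 (17 cells) carried TRBV12-2+TRBV13-2, a joint call, and TRBJ1-6 with TRAV12-1 and TRAJ22, the alpha segments of clones 2 and 3. Clone 7 (16 cells) carried TRBV14 and TRBJ1-3 with TRAV9D-3 and TRAJ27, and clone 8 (13 cells) carried TRBV5 and TRBJ2-1 with TRAV9N-4 and TRAJ21. Clone 9 (11 cells) carried TRBV12-1 and TRBJ2-5 with TRAV10 and TRAJ22. Their beta CDR3 had 15, 15, 13 and 13 residues and their alpha CDR3 16, 14, 13 and 13, in the order of clones 6 to 9. The alpha chain was found in 12 of 17, 13 of 16, 8 of 13 and 7 of 11 cells. Clone 6 had the deepest beta chain of these, with a median of 9 UMIs (3 to 25), and clone 9 the shallowest, with 5 (2 to 8). One single-cell clonotype had the beta and alpha CDR3 bases of clone 6 but the call TRBV13-2.

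In the aged aCD49d library, the 5 largest clones held 46 to 101 cells. Clone 1 (101 cells, 8.99%, interval 7.39% to 10.8%) carried TRBV12-2+TRBV13-2 and TRBJ2-4 with TRAV9-4 and TRAJ49. Clone 2 (78 cells, 6.95%) carried TRBV10 and TRBJ2-7 with TRAV9-4 and TRAJ34. Clone 3 (69 cells, 6.14%) carried TRBV3 and TRBJ2-7 with TRAV16N and TRAJ13. Clone 4 (52 cells, 4.63%) carried TRBV12-2 and TRBJ2-3 with TRAV12-2 and TRAJ32, and clone 5 (46 cells, 4.10%) carried TRBV19 and TRBJ1-1 with TRAV17 and TRAJ33. Their beta CDR3 had 14 to 16 residues and their alpha CDR3 12 to 15.

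Beta UMIs per cell in these 5 clones had medians of 9 (2 to 23), 12 (3 to 28), 10 (2 to 29), 10 (1 to 26) and 8 (2 to 23), in the order of clones 1 to 5. Alpha UMIs had medians of 3, 3, 4, 3 and 4, and reached 25 in clone 1. The alpha chain was found in 72 of 101 cells of clone 1 (71.3%), 68 of 78 of clone 2 (87.2%), 69 of 69 of clone 3, 40 of 52 of clone 4 (76.9%) and 44 of 46 of clone 5 (95.7%). Clone 2 had the highest beta median of the 5, and clone 3 the highest recovery.

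Several of the 11 clonotypes of ATBI_aCD49d had the same receptor or the same beta chain. Clones 1 and 10 were identical from framework 1 to framework 4 in both chains and differed in the V call, TRBV12-2+TRBV13-2 against TRBV13-2, whose V bases in both lie in Trbv13-2 (chromosome 6, 41121396 to 41121832). They held 113 cells together (10.1%, interval 8.36% to 12.0%). Clones 3 and 11 (69 and 12 cells) were likewise identical in both chains, and the 20 cells of clone 6 had their beta chain and no alpha chain. These 3 clonotypes of Trbv3 (chromosome 6, 41048290 to 41048828) held 101 cells (8.99%, interval 7.39% to 10.8%). What separates clone 3 from clone 11 is not in the columns analysed here. With the copies joined, and clones 2 and 3 of ATBI_Isotype joined as well, the 22 clonotypes formed 18 groups, 2 in YTBI_aCD49d and 8 in each aged library. In this count clone 6 is joined by its beta chain alone, and clones 2 and 3 of ATBI_Isotype differ in 1 beta residue.

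Of the remaining clones of ATBI_aCD49d, clone 8 (15 cells) carried TRBV12-2+TRBV13-2 and TRBJ2-5 with TRAV9D-3 and TRAJ32, and clone 9 (13 cells) carried TRBV12-1 and TRBJ1-4 with TRAV6-6 and TRAJ58. Clone 7 (18 cells) carried TRBV12-1 and TRBJ1-1 with 2 alpha chains. A T cell can rearrange alpha on both chromosomes, so 2 productive alpha chains can occur in a cell. TRAV14D-1 with TRAJ6 was found in 16 of its cells (median 5.5 UMIs), TRAV11 with TRAJ17 in 11 (median 4 UMIs), and both in 9. The alpha chain of clone 8 was found in 13 of 15 cells and that of clone 9 in 7 of 13. Clone 7 was the 1 clone of 21 with an alpha chain in which any cell had a second one.

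A second alpha chain was found in 0 of 43, 0 of 433 and 9 of 436 cells of these clones in YTBI_aCD49d, ATBI_Isotype and ATBI_aCD49d. Among single-cell clonotypes the counts were 27 of 425, 16 of 373 and 30 of 457. Cells of a clone share their chains and are not separate receptors, so these shares were not compared. No cell of these clones had more than 1 beta chain, against 3, 9 and 16 cells among single-cell clonotypes, a difference that the grouping into clonotypes by CDR3 fixes in part. No doublet caller was run.

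For 5 of the 21 clones with an alpha chain, the V region occurs at 2 annotated alpha segments of identical sequence, such as TRAV9D-3 and TRAV9N-3 of the duplicated mouse alpha locus on chromosome 14, and the copy cannot be told apart. The beta constant gene was the one next to the J segment in 22 of 22 clones, TRBC1 after the TRBJ1 cluster and TRBC2 after the TRBJ2 cluster.

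The invariant receptors of innate-like T cells were looked for by their alpha segments. Invariant natural killer T (iNKT) cells join TRAV11 to TRAJ18 and mucosal-associated invariant T (MAIT) cells join TRAV1 to TRAJ33, and neither was found in the 21 clones with an alpha chain. Of single-cell clonotypes with an alpha chain, 35 of 337, 19 of 263 and 35 of 387 had the TRAV11 to TRAJ18 join in YTBI_aCD49d, ATBI_Isotype and ATBI_aCD49d. In clonotypes of 2 to 9 cells it was found in 0, 2 and 5 cells. With so few clones, a count of 0 is near these shares of single-cell clonotypes. The deposited evidence columns nevertheless named 5 of the 22 clones, each by its beta V gene alone: ATBI_Isotype clones 1, 4 and 5 and ATBI_aCD49d clones 5 and 10.

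Transcript depth per chain varied between clones. In ATBI_Isotype, the median beta UMIs per cell ran from 4 in clone 1 to 9 in clones 5 and 6, and the median alpha UMIs from 2 to 4. In ATBI_aCD49d, the beta medians ran from 6 in clone 9 to 12 in clones 2 and 6, and the alpha medians from 3 to 5. Beta was above alpha in each clone with both. Over all cells of the clones, the median beta UMIs were 7, 6 and 9 in YTBI_aCD49d, ATBI_Isotype and ATBI_aCD49d, against 9, 8 and 11 in single-cell clonotypes. For alpha they were 2.5, 2 and 3 against 3, 3 and 4. The quartiles overlapped in every case, for example 6 to 14 in the clones and 7 to 17 in single-cell clonotypes for beta in ATBI_aCD49d.

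**Figure D2:**
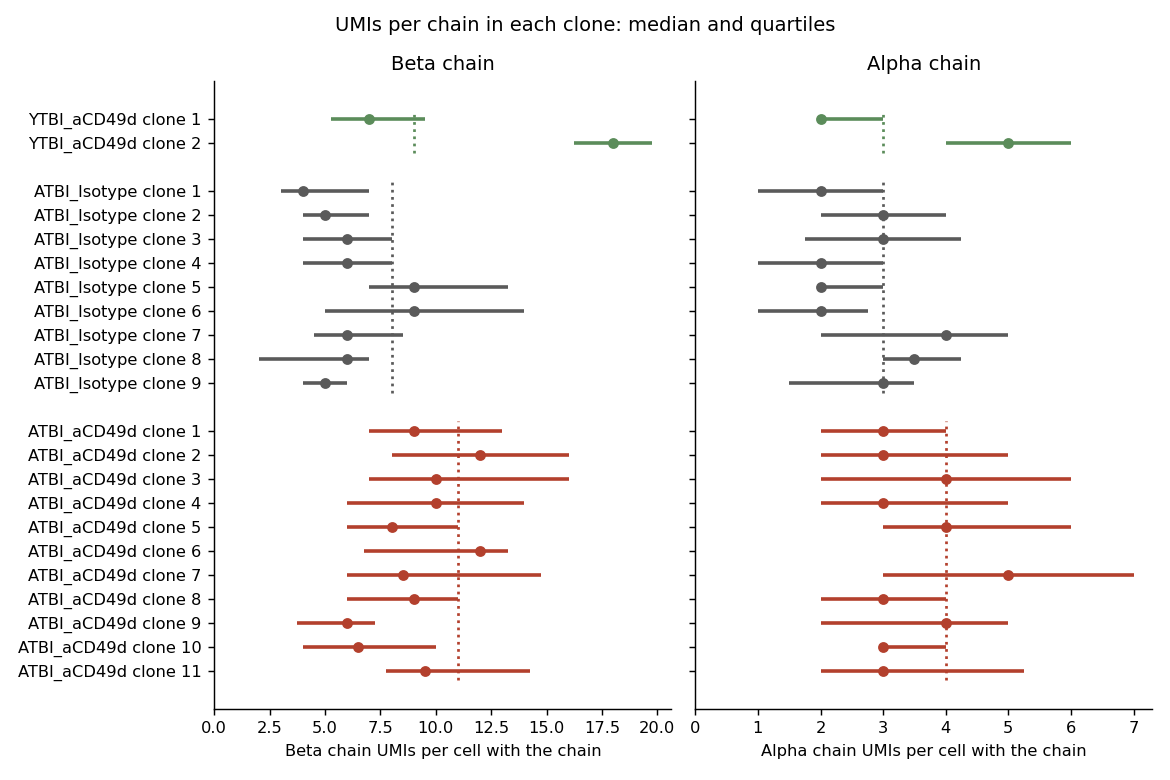
UMIs per cell for the beta chain (left) and the alpha chain (right) in each clone, over cells with that chain, with the median (circle) and quartiles (line). Dotted lines mark the median of single-cell clonotypes of the same library, which for beta lies above most clones, and YTBI_aCD49d clone 2 has the highest beta median, 18.

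An alpha chain was recovered in 30 of 43 cells of the clones in YTBI_aCD49d (69.8%, interval 53.9% to 82.8%), 267 of 433 in ATBI_Isotype (61.7%, interval 56.9% to 66.3%) and 352 of 436 in ATBI_aCD49d (80.7%, interval 76.7% to 84.3%). Among single-cell clonotypes the shares were 79.3%, 70.5% and 84.7%. Clonotypes are assigned from the chains recovered, so membership of a clone is not independent of alpha recovery. The difference, clones minus single-cell clonotypes, was below 0 in each library: -9.53 points (interval -25.9 to 4.17) in YTBI_aCD49d, -8.85 points (interval -15.5 to -2.12) in ATBI_Isotype and -3.95 points (interval -9.07 to 1.17) in ATBI_aCD49d. The interval of ATBI_Isotype lay below 0 but reached it under other choices of cells. Without clonotypes that have iNKT or MAIT evidence, which leaves out clones 1, 4 and 5, the difference was -4.75 points (interval -13.5 to 4.04). Among cells with 3 to 10 beta UMIs it was -7.98 points (interval -16.2 to 0.437).

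Thinning each cell to 5 UMIs leaves out cells with fewer in all, and a cell without an alpha chain falls below that number more easily. In ATBI_Isotype it left out 92 cells of the clones, 64 of them without an alpha chain, and 42 single-cell clonotypes, 19 of them without one. This step alone, before thinning, put recovery at 70.1% (239 of 341 cells) against 72.5% (240 of 331). After thinning, the expected recovery was 60.1% against 58.4%, a difference of 1.71 points. The gap was narrower once cells were left out, and the sign turned with the thinning. The 5 UMIs were drawn from both chains of a cell together, so expected recovery depends on its share of alpha UMIs. The same thinning gave -8.15 points in YTBI_aCD49d and -1.76 points in ATBI_aCD49d.

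In ATBI_Isotype, recovery in single-cell clonotypes was 82.5% at 1 to 3 beta UMIs, 64.1% at 4 to 7, 72.0% at 8 to 15 and 63.8% at 16 or more. In the clones of that library it was 59.1%, 59.8%, 65.2% and 66.7% in the same ranges. The part of depth in the difference was not tested.

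Recovery per clone ran from 41.2% (21 of 51 cells, interval 27.6% to 55.8%) in ATBI_Isotype clone 4 to 81.3% (13 of 16, interval 54.4% to 96.0%) in clone 7 of that library. The interval of clone 4 lies below that of the library's single-cell clonotypes, 65.6% to 75.1%. Without clone 4, a setting chosen after its value was seen, the difference in ATBI_Isotype was -6.11 points (interval -12.9 to 0.759). In YTBI_aCD49d the difference rested on clone 1 (21 of 33 cells), and without it was 10.7 points from the 10 cells of clone 2. In ATBI_aCD49d the difference was -1.10 points (interval -6.54 to 4.16) without clone 1. With each clone counted once in place of each cell, the differences were -2.48, -7.64 and -7.72 points in YTBI_aCD49d, ATBI_Isotype and ATBI_aCD49d. In ATBI_aCD49d, recovery was 100% in clones 3, 7 and 11 and 0% in clone 6. The -7.72 points there count clone 6 as a clone of its own, although it has the beta chain of clones 3 and 11. That value thus depends on how the copies are split. With the copies joined, the TRBV3 receptor had its alpha chain in 81 of 101 cells (80.2%, interval 71.1% to 87.5%) and the receptor of clones 1 and 10 in 81 of 113 (71.7%, interval 62.4% to 79.8%). After this, the lowest value in the library was 53.8% (7 of 13 cells) in clone 9. Clones 4, 8, 2, 5 and 7, which have no copies, had 76.9%, 86.7%, 87.2%, 95.7% and 100%, against 84.7% in single-cell clonotypes.

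**Figure D3:**
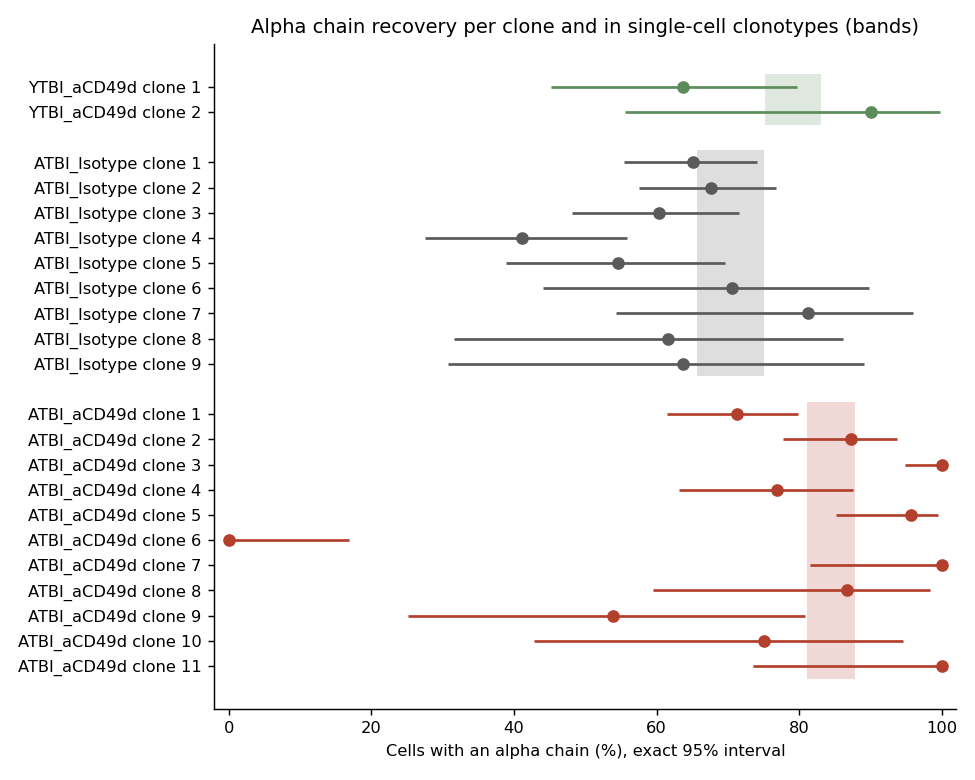
Share of cells with an alpha chain in each clone (circle, with its exact 95% interval) and in single-cell clonotypes of the same library (band, exact 95% interval). ATBI_Isotype clone 4 lies below its band at 41.2%, and in ATBI_aCD49d clones 3 and 11 at 100% and clone 6 at 0% have the same beta chain.

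Set side by side, 80.7% of the clones' cells in ATBI_aCD49d and 61.7% in ATBI_Isotype had an alpha chain, and their median beta UMIs were 9 and 6. By range of beta UMIs, recovery in ATBI_aCD49d against ATBI_Isotype was 24 of 32 against 55 of 93 cells at 1 to 3 UMIs, 89 of 114 against 125 of 209 at 4 to 7, 172 of 215 against 75 of 115 at 8 to 15, and 64 of 72 against 8 of 12 at 16 or more. The share was higher in ATBI_aCD49d in each of the 4 ranges, and the exact intervals overlapped at 1 to 3 and at 16 or more UMIs. Single-cell clonotypes had 84.7% and 70.5% over all depths. These are cells of a few clones in 1 library each, so the values describe the libraries, and library, treatment and the pooled mice cannot be told apart.

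Segment use was compared with each clonotype counted once. The segments named are the V segments carried by at least 3 of these clones and the 3 most frequent TRBV segments of single-cell clonotypes in the aged libraries. The first kind was chosen on the clones, so its share among them is raised by the choice and is given as a description. TRBV14 was carried by 3 of 9 clones of ATBI_Isotype (33.3%, interval 7.49% to 70.1%) and 10 of 363 single-cell clonotypes (2.75%). It was carried by 0 of 11 clones and 12 of 446 single-cell clonotypes of ATBI_aCD49d. TRAV12-1 was carried by 3 of 9 clones of ATBI_Isotype and 2 of 263 single-cell clonotypes (0.760%). In ATBI_aCD49d it was found in 0 of 10 clones and 0 of 387 single-cell clonotypes.

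Clones 2 and 3 of ATBI_Isotype entered both counts although they are nearly the same receptor. With near-identical clonotypes joined, TRBV14 and TRAV12-1 were each in 2 of 8 clones. TRAV9-4 was carried by 3 of 10 clones of ATBI_aCD49d (clones 1, 2 and 10) against 5 of 387 single-cell clonotypes (1.29%), and by 2 of 8 with the copies joined.

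TRBV19 was carried by 2 of 9 clones of ATBI_Isotype and 1 of 11 of ATBI_aCD49d, against 5.23% and 7.62% of single-cell clonotypes. TRBV12-1 was carried by 1 of 9 and 2 of 11 clones, against 4.41% and 3.81%. TRBV3 was carried by 3 of 11 clones of ATBI_aCD49d, all with the same beta chain, and by 0 of 9 of ATBI_Isotype. Among single-cell clonotypes it was in 8.52% and 7.16%. TRBV12-2+TRBV13-2, the most frequent call, was in 1 of 9 and 2 of 11 clones against 11.6% and 11.2% of single-cell clonotypes. Counted by the annotated gene that holds the V bases, Trbv13-2 was in 1 of 9 and 3 of 11 clones, clones 1 and 10 of the latter being copies, against 14.9% and 14.6%. TRBV1 was in 1 of 9 and 0 of 11 clones, against 6.34% and 9.19%. TRBV13-3 was in 8.82% and 8.30% of single-cell clonotypes and in no clone, which with 9 and 11 clones leaves upper limits of 33.6% and 28.5%.

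**Figure D4:**
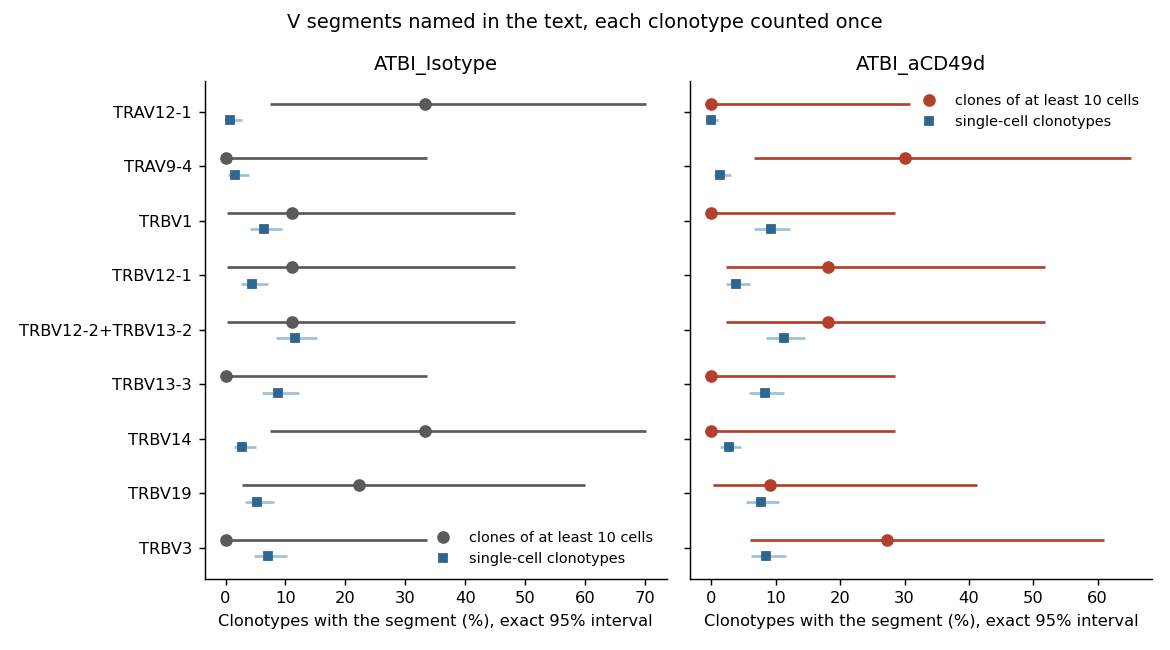
Share of clonotypes (percent, exact 95% interval) that carry each named V segment in the aged libraries, for clones of at least 10 cells (circles) and single-cell clonotypes (squares), each clonotype counted once. TRBV14 and TRAV12-1 stand at 33.3% of the ATBI_Isotype clones and TRAV9-4 at 3 of 10 ATBI_aCD49d clones, and the wide intervals come from 9 to 11 clones.

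Among J segments, which the naming rule did not cover and which were chosen after their values were seen, TRAJ22 was carried by 4 of 9 clones of ATBI_Isotype (clones 2, 3, 6 and 9) and 23 of 263 single-cell clonotypes (8.75%). With clones 2 and 3, which have the same alpha chain, counted once, it was in 3 of 8. It was in 0 of 10 clones of ATBI_aCD49d and 27 of 387 single-cell clonotypes (6.98%). TRAJ13 was in 2 of 10 clones of ATBI_aCD49d, both of them the TRBV3 receptor, and in 1 of 2 of YTBI_aCD49d, against 1.29% and 1.78% of single-cell clonotypes. TRBJ2-7 was in 4 of 11 clones of ATBI_aCD49d, 3 of them copies, and in 0 of 9 of ATBI_Isotype, against 16.6% and 20.9% of single-cell clonotypes. The TRBJ1 cluster was used by 6 of 9 clones of ATBI_Isotype against 146 of 363 single-cell clonotypes, and by 3 of 11 clones of ATBI_aCD49d against 174 of 446. With near-identical clones counted once, these were 5 of 8 and 3 of 8 clones.

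Beta CDR3 lengths of the clones lay within the range of single-cell clonotypes. They were 13.6 ± 1.42 residues (mean ± SD over 9 clones) in ATBI_Isotype against 13.99 ± 1.42 over 363 single-cell clonotypes. In ATBI_aCD49d they were 14.7 ± 1.56 over 11 clones against 14 ± 1.40 over 446. Of the 11 clones, 5 are copies of 2 receptors with 16 residues, and with each beta CDR3 counted once, a setting chosen after the values were seen, the mean over 8 was 14.3 ± 1.58, so the difference fell from 0.73 to 0.23 residues. Alpha lengths were 14.2 ± 1.20 and 13.5 ± 1.08 residues in the same libraries, against 13.6 ± 1.36 and 13.7 ± 1.37. Identical alpha chains were not joined in the alpha means. They have 14 residues in clones 2 and 3 of ATBI_Isotype. In ATBI_aCD49d they have 13 in clones 1 and 10, and 12 in clones 3 and 11. No test was made on these means.

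The beta CDR3 bases outside V and J numbered 5, 5, 6, 7, 7, 8, 10, 11 and 16 in the clones of ATBI_Isotype, with a mean of 8.33 ± 3.54 against 10.1 ± 3.87 in single-cell clonotypes. In ATBI_aCD49d they numbered 9 to 17, with a mean of 13.2 ± 2.86 against 10.1 ± 3.83. The means of the aged libraries lay on opposite sides of the single-cell mean, while single clones did not: ATBI_Isotype clones 4 and 7 had 11 and 16 bases and ATBI_aCD49d clones 7 and 9 had 9 and 10. With the copies of ATBI_aCD49d counted once in the same way, the mean over 8 receptors was 12.3 ± 2.55. With clones 2 and 3 of ATBI_Isotype joined, the mean of that library over 8 clones was 8.75 ± 3.54. With a limit of 5 cells, the difference from single-cell clonotypes went from -1.72 to -0.745 bases in ATBI_Isotype. In ATBI_aCD49d it went from 3.08 to 1.90 bases.

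Alpha joins were shorter, with 3.44 ± 3.09 bases outside V and J in ATBI_Isotype (0 to 9) and 2.20 ± 0.919 in ATBI_aCD49d (0 to 3), against 2.61 ± 2.24 and 2.47 ± 2.05. Identical alpha chains were not joined in these means. ATBI_Isotype clone 8 and ATBI_aCD49d clone 7 had an alpha CDR3 made up of germline bases alone. Among single-cell clonotypes, 21.3% and 20.9% of alpha chains were of this kind.

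**Figure D5:**
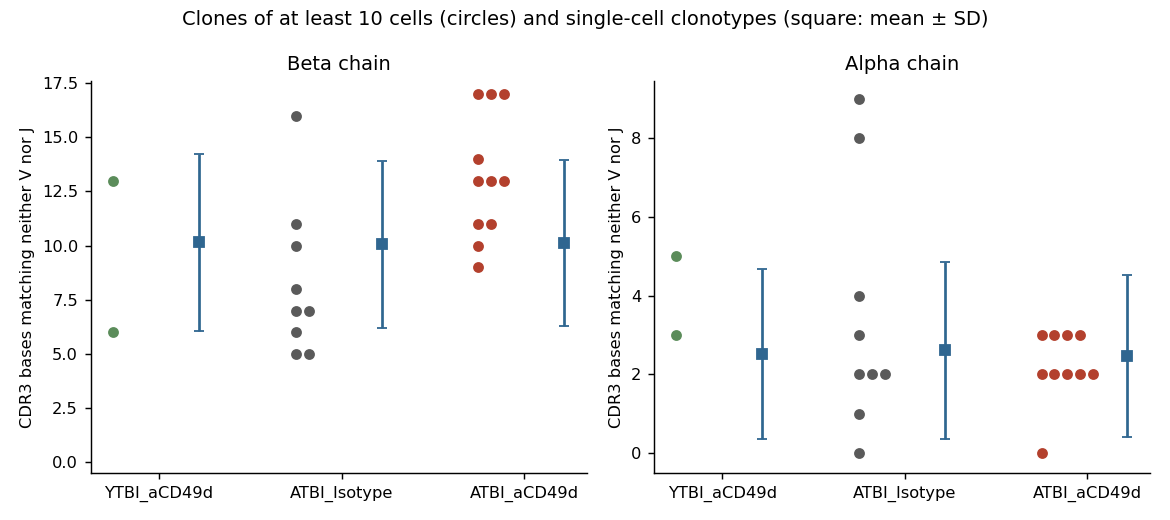
CDR3 bases matching neither V nor J in each clone (circles) and in single-cell clonotypes of the same library (square, mean ± SD), for the beta chain (left) and the alpha chain (right). Beta joins of the ATBI_Isotype clones centre on 8.33 bases and those of ATBI_aCD49d on 13.2, with single-cell means of 10.1 in both.

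Of 231 pairs of clones, 5 were within 3 bases in each chain recovered in both, all within a library and all named above. Outside these, the nearest beta CDR3 were 5 residues apart, among them YTBI_aCD49d clone 2 and ATBI_Isotype clone 5 (9 bases apart) and ATBI_aCD49d clones 7 and 9 (11 bases apart), and the nearest alpha CDR3 were 3 residues apart. ATBI_aCD49d clones 4 and 8 were 4 bases apart in alpha, both with TRAJ32, and 14 bases apart in beta. No further pair shared both beta segments, and ATBI_Isotype clones 2 and 3 each shared both alpha segments with clone 6, at 7 bases. The median distance between beta CDR3 was 9 residues in ATBI_Isotype and 8 in ATBI_aCD49d over pairs of clones, near-identical pairs included. It was 8 over pairs of single-cell clonotypes in both.

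A single-cell clonotype within 1 residue in the beta CDR3 was found for 0 of 2 clones of YTBI_aCD49d, 1 of 9 of ATBI_Isotype (11.1%, interval 0.281% to 48.2%) and 0 of 11 of ATBI_aCD49d. The 1 was clone 6, whose neighbour is the cell with both of its chains. The 11 clones of ATBI_aCD49d hold 8 different beta CDR3. Copies were not joined for the shares, intervals and distances of this paragraph. Among single-cell clonotypes themselves the shares were 7.97%, 12.1% and 10.1%. The differences were -7.97 points (interval -11.0 to 76.3), -1.01 points (interval -12.5 to 36.3) and -10.1 points (interval -13.3 to 18.5), so no difference was detectable with this number of clones. ATBI_Isotype clone 5 had its nearest single-cell beta CDR3 at 6 residues, the farthest of the 22, and the mean distance was 2.78 ± 1.64 residues in ATBI_Isotype and 2.45 ± 0.688 in ATBI_aCD49d, against 2.60 ± 1.06 and 2.57 ± 1.01.

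No CDR3 of these clones, alpha or beta, was found with the same bases in another library. At the level of residues, the alpha CDR3 of ATBI_Isotype clone 5 was found in 1 cell of YTBI_Isotype and the beta CDR3 of ATBI_aCD49d clone 8 in 1 cell of YTBI_aCD49d. Within its library, the alpha chain of ATBI_Isotype clone 9 occurred in 1 cell with another beta chain, and that of ATBI_aCD49d clone 5 in 3 cells, 2 of them without a beta chain.

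The V bases of the chains followed germline closely. Of 1560 chains in these clones, 1549 matched their germline V segment from framework 1 to framework 3 in every base and 11 differed by 1 base. Among single-cell clonotypes, 2702 of 2711 matched, 6 differed by 1 base and 3 by more. The 11 chains were 3 beta variants within 3 clones, each carried by several cells. Positions are counted from 1 at the first base of framework 1, and the windows below show the germline and the changed base in capitals.
ATBI_Isotype clone 2, germline: ttactttcggGatgaggctgt
ATBI_Isotype clone 2, variant: ttactttcggAatgaggctgt
ATBI_Isotype clone 3, germline: gtatcagcagCccagagacca
ATBI_Isotype clone 3, variant: gtatcagcagTccagagacca
ATBI_aCD49d clone 1, germline: tggcagcactGagaaaggaga
ATBI_aCD49d clone 1, variant: tggcagcactAagaaaggaga

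In ATBI_Isotype clone 2, G151A in CDR2 of Trbv14 was carried by 3 cells with 5 to 15 beta UMIs, against 96 cells without it. In clone 3 of that library, C112T in framework 2 was carried by 4 cells with 4 to 8 beta UMIs, against 69 without. In ATBI_aCD49d clone 1, G166A in framework 3 of Trbv13-2 was carried by 4 cells with 9 to 23 beta UMIs, against 97 without. Each changes the encoded residue. The CDR3 of the cells with a variant was that of their clone, so the variants divide these clones further without changing the clonotype, and whether they arose in the cells or in library preparation was not tested.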

How the data were processed

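The authors aligned TCR reads to mm10 and assembled chains with Cell Ranger (7.2.0 in the submitters' processing notes, which list mm9 and mm10). The deposited contig tables give UMIs and reads per chain as counts, and the deposited clonotype tables give the size of every clonotype as counts of cells, with its fraction of all cells beside it. The authors then filtered receptors by T cell identity in the matched expression data, which was not done here.

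The members and lists were chosen with earlier results of these data known. Every clone is listed, and the 5 largest per library, young clones and near-identical clones are given in full. Each clonotype took the segments and CDR3 of the chain found in most of its cells. Bases were matched to germline segments of GENCODE vM21 on GRCm38 inward from both CDR3 ends, and 1 mismatch was passed where the next 6 bases matched. Distances are numbers of edits. Intervals at 95% are Clopper-Pearson for a share and Newcombe for a difference. A count of 0 allows 3 counts of the total. Alternatives changed the clone definition, the cells, the size limit, the comparison set and the distance. The functions were tested on simulated data. Python 3.11.15, pandas 2.3.3, scipy 1.17.1 and matplotlib 3.10.9 were used.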

Additional observations from a re-analysis of the deposited data

How the results depend on the processing

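No paired analysis was possible because every group consists of a single library. A share or difference was taken as moved once it fell outside its own 95% interval, or for lengths and bases when it moved by more than 1 SD between the clones, and a count when it changed by over 1.5 times. Clones by beta CDR3 bases alone, the bases outside V and J, and leaving out ATBI_Isotype clone 4 were chosen after the data were seen. The cause of the changes below was not tested.

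With a limit of 1% of the library's cells, the number of clones was 8 in YTBI_Isotype and 5 in YTBI_aCD49d, and their shares of cells were 11.5% and 10.7%. With only cells that have both chains, YTBI_aCD49d had 1 clone with 4.12% of cells, and the share was 36.9% in ATBI_Isotype. The difference in alpha recovery became 10.7 points in YTBI_aCD49d without its largest clone and 1.71 points in ATBI_Isotype with cells thinned to 5 UMIs, which leaves out cells without an alpha chain more often, and the other 32 of 34 values stayed within the interval. In ATBI_Isotype the difference no longer excluded 0 without iNKT or MAIT evidence (-4.75 points), among cells with 3 to 10 beta UMIs (-7.98 points) or without clone 4 (-6.11 points). In ATBI_aCD49d it was -1.10 points without the largest clone. The difference in neighbours was -13.5 points in YTBI_aCD49d against clonotypes of 2 to 9 cells and -45.4 points with 2 residues allowed, and -12.6 points in ATBI_Isotype without iNKT or MAIT evidence. In YTBI_aCD49d its sign turned with a limit of 5 cells, from -7.97 to 14.3 points (2 of 9 clones, interval -5.39 to 52.1), though within the main interval. Of 55 values of segment use, 1 moved: TRBV12-1 in ATBI_aCD49d went from 14.4 to -3.81 points with a limit of 20 cells (0 of 6 clones). In ATBI_Isotype, TRBV12-1 went from 6.70 to -4.41 points at that limit (0 of 5 clones), within its interval. For beta length and bases outside V and J, 1 SD between clones is a wide limit that none of 18 and 15 values passed: the length difference went from 0.02 to 2.02 residues in YTBI_aCD49d with a limit of 20 cells, which leaves 1 clone, and from 0.73 to 0.23 in ATBI_aCD49d by beta CDR3. With 2 to 11 clones per library, intervals on segment use are wide.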
